A study of Mus musculus with 6 samples.

Results

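The 33 genes described here encode enzymes and regulators of cholesterol and fatty acid synthesis, listed by name and found as columns of the deposited count table, which held 15473 genes. They comprise 7 mevalonate enzymes, 11 squalene and sterol enzymes and 8 fatty acid synthesis genes. The others are 3 cholesterol transport genes and 4 genes of the SREBP transcription factors and their control. Levels came from single-cell RNA sequencing of CD4 T cells sorted from the lamina propria of the mouse colon. The labels give 1 genotype for both groups, Foxp3{delta}EGFPiCre/WT R26lsl-tdTomato/wt, that is 1 Foxp3 allele carrying an EGFP and iCre insert, 1 intact Foxp3 allele and a Cre-dependent tdTomato reporter at the R26 locus. No age or treatment is given. Foxp3 lies on the X chromosome, so with random X inactivation a cell uses 1 of its alleles. Cells sorted as tdTomato+GFP+ carried both reporters. Those sorted as tdTomato-GFP- carried neither and can include regulatory T (Treg) cells that use the unmodified allele. Cells showing 1 reporter alone were not in these gates. Each gate came from 3 biological replicates, hashed and run on 1 10x lane. Each lane held 1 gate, and an effect of the lane cannot be told apart from that of the gate.

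Cholesterol is built from acetyl-CoA through mevalonate, farnesyl diphosphate, squalene and lanosterol. When sterols in the endoplasmic reticulum are low, SCAP escorts SREBP proteins to the Golgi, where they are cut and released to switch on these genes, whereas INSIG1 holds SCAP back. SREBP2 mainly drives cholesterol genes and SREBP1 mainly fatty acid genes. In T cells the pathway is known for supplying membranes of dividing cells, for prenyl groups that Treg cells need, and for sterol intermediates that bind RORgt, the transcription factor of Th17 cells.

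SREBP proteins bind sterol regulatory elements and often act with NF-Y, which binds the CCAAT box, so promoter windows were searched for these letters on both strands. RefSeq windows of GRCm38.p6, from 250 bases before to 50 after a start, were available for 26 of the 33 genes. CCAAT was present in 20 of these 26, among them 14 of 15 cholesterol enzymes and 3 of 6 fatty acid genes, beside 41.1% of 27025 genes with a window. The element core TCACNCCAC was found in the window of Hmgcs1 alone, beside 1.44% of all genes. Its relaxed form TCACNNNAC, which contains the core, was found in 6 genes (Hmgcs1, Msmo1, Nsdhl, Hsd17b7, Dhcr7 and Insig1), beside 12.7% of all genes. The E-box CACGTG, which SREBP1 can also bind, was in 7 genes, beside 8.09% of all genes. A match describes letters in a window and was not tested as a binding site. Hmgcs1 is shown because it held the core (chr13:119690101-119690400, + strand). Mvd and Msmo1 (chr8:122443373-122443672 and chr8:64733529-64733828, both - strand) are shown as cholesterol enzymes higher in tdTomato+GFP+ cells, and Elovl5 and Elovl6 (chr9:77917115-77917414 and chr3:129532136-129532435, both + strand) as fatty acid genes lower there. Capitals mark CCAAT, read as ATTGG on the other strand, and the core of Hmgcs1.
Hmgcs1: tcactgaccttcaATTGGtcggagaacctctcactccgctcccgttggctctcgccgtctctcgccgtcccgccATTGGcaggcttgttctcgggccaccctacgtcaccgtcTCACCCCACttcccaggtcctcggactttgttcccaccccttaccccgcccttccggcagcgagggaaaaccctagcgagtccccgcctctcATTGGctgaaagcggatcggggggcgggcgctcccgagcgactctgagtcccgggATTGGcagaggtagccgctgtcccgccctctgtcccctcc
Mvd: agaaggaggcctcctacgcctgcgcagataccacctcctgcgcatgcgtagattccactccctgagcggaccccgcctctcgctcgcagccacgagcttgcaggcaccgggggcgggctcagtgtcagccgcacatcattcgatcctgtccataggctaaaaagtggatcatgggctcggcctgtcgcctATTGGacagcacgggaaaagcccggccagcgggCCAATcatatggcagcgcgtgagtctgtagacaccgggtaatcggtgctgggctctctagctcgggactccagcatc
Msmo1: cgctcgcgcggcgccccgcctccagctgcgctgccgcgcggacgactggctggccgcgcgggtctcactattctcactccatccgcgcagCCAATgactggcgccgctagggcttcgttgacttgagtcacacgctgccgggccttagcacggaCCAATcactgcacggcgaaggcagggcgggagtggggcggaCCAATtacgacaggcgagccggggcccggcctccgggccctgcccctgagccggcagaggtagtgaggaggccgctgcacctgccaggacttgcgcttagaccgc
Elovl5: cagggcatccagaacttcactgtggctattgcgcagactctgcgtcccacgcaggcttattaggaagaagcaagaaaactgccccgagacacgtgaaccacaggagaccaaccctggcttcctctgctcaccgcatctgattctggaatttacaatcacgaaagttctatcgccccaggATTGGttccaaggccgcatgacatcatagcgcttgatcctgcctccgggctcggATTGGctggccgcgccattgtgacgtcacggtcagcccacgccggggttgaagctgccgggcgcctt
Elovl6: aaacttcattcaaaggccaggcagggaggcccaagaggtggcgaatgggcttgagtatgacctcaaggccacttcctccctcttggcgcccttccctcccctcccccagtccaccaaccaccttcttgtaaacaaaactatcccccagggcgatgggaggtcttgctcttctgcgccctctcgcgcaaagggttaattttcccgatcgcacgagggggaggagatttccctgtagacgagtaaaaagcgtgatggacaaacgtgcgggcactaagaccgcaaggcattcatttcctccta
The window of Hmgcs1 held 4 CCAAT boxes, that of Msmo1 held 3, and those of Mvd and Elovl5 held 2 each. The window of Elovl6 held 0 of the 4 motifs searched. That of Fasn, also a fatty acid gene lower in tdTomato+GFP+ cells, held 3 CCAAT matches and is not shown.

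The table held 23595 cells, of which 18874 were assigned to a replicate, 10109 in the tdTomato-GFP- gate (1836 to 5159 per replicate) and 8765 in the tdTomato+GFP+ gate (1747 to 4610). Summed UMIs ran from 7424984 to 23289046 per replicate. Both lanes shared 174 cell barcodes. Levels are CPM, UMIs scaled to the total without hashtags. Foxp3, the targeted gene, was at 174, 194 and 168 CPM in replicates 1 to 3 of tdTomato-GFP- cells and at 144, 118 and 115 CPM in those of tdTomato+GFP+ cells. Its UMIs do not separate the alleles. CD4 T cell markers summed to 3891 to 4270.4 CPM in tdTomato-GFP- and 4932 to 5345 CPM in tdTomato+GFP+ replicates. Clusters are the authors'. Clusters 1, 2, 3, 12 and 13 are called Th17-like here, as each held 4 of 6 Th17 markers at 1.5-fold or more over the median of the other clusters. Cluster 10 is called cycling-like, with 6 of 6 cycling markers. The Th17-like clusters took 11.2% ± 1.56 (SD, n = 3) of tdTomato-GFP- cells and 65.4% ± 7.39 of tdTomato+GFP+ cells. Cluster 5, which held 5 of 5 Treg markers at 1.5-fold but also Klrg1, Gzma and Gzmb among its leading genes, took 14.4% and 1.84%.

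Over all cells, cholesterol enzymes that differed were higher in tdTomato+GFP+ cells and fatty acid genes that differed were lower. All 33 genes had a UMI in each of the 6 replicates and 32 passed the filter on low counts. Of these, 4 were higher in tdTomato+GFP+ cells (Mvd, Fdft1, Msmo1 and Ebp) and 3 were lower (Fasn, Elovl5 and Elovl6) by edgeR's quasi-likelihood test. Of all 11933 genes tested, 26.4% differed, 13% higher and 13.4% lower, so the 7 called genes are near the background share. The 6 replicates did not overlap for 7 genes higher and 6 genes lower in tdTomato+GFP+ cells, beside 22.8% and 20.1% of all tested genes. Counting replicate number as a block raised the calls to 8 higher and 3 lower, adding Idi1, Sqle, Hsd17b7 and Srebf2, while the share of all genes called with the block was 34.6%, so the blocked count too is near the background. The median log2 fold change was 0.04 over the 32 genes and -0.00 over all tested genes. It was 0.18 over the 18 cholesterol enzymes, of which 13 had a positive fold, and -0.25 over the 8 fatty acid genes, of which 6 had a negative fold. Fold changes are tdTomato+GFP+ over tdTomato-GFP- throughout.

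**Figure D1:**
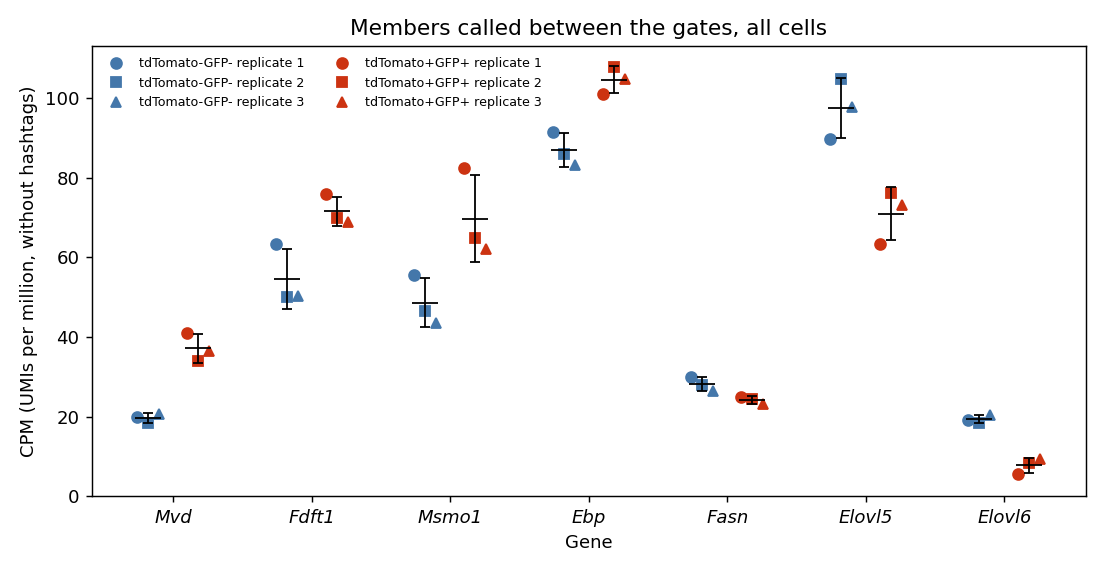
CPM of the 7 genes called over all cells, by gate and replicate; crosses and bars give the mean and SD of 3 replicates. Mvd lies at 34.0 to 41.1 CPM in tdTomato+GFP+ cells and 18.4 to 20.7 CPM in tdTomato-GFP- cells, and Elovl6 at 5.52 to 9.33 CPM and 18.4 to 20.4 CPM.

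Among the mevalonate enzymes, 1 of 7 was called, beside 26.4% of all tested genes. Mvd, which decarboxylates mevalonate diphosphate to isopentenyl diphosphate, stood at 20.0, 18.4 and 20.7 CPM in replicates 1 to 3 of tdTomato-GFP- cells and at 41.1, 34.0 and 36.4 CPM in those of tdTomato+GFP+ cells. Every tdTomato+GFP+ replicate was above every tdTomato-GFP- replicate. The log2 fold change of Mvd was 0.90 (SE 0.0883, edgeR adjusted p = 0.000285), and it stayed called in 13 of 13 alternative settings. The gene lies on chromosome 8 at 122433601 to 122443422 of GRCm38 on the minus strand. The other 6 had folds between -0.21 (Acat2, the thiolase that condenses acetyl-CoA) and 0.26 (Idi1, the isomerase of isopentenyl diphosphate). Idi1 stood at 60.4, 56.9 and 47.8 against 79.1, 61.9 and 59.6 CPM and was called with the replicate block (log2 0.26, edgeR adjusted p = 0.0116). Hmgcs1, which makes the substrate of the rate-limiting step, had a log2 fold of 0.05 at 57.9 to 70.8 and 56.8 to 78.4 CPM. Mvk, the mevalonate kinase, had a log2 fold of -0.20 with non-overlapping replicates, and Pmvk, the next kinase, and Fdps, which makes farnesyl diphosphate, had log2 folds of 0.20 and 0.11.

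Of the 11 squalene and sterol enzymes, 3 were higher and none was lower by edgeR over all cells, while 5 had an unadjusted p below 0.05. Of all tested genes, 13% were higher and 13.4% lower. Fdft1, the squalene synthase, stood at 63.3, 50.1 and 50.2 CPM against 75.8, 69.9 and 69.0 CPM (tdTomato-GFP- first here and below). Its replicates did not overlap, and its log2 fold change was 0.37 (SE 0.0878, edgeR adjusted p = 0.0152). Fdft1 shares 774 exonic bases with Ctsb on the other strand, and the counting's use of strand is not given in the sources used here. Msmo1, the oxidase that starts removal of the C4 methyl groups of sterols, stood at 55.5, 46.6 and 43.7 CPM against 82.4, 64.8 and 62.1 CPM, also without overlap. Its log2 fold change was 0.50 (SE 0.127, edgeR adjusted p = 0.0273). The calls of Fdft1 and Msmo1 were lost without tdTomato-GFP- replicate 2 (adjusted p = 0.0591 and 0.0981), without tdTomato-GFP- replicate 3 (0.0544 and 0.0835) and without tdTomato+GFP+ replicate 2 (0.0515 and 0.0598), all by edgeR. Ebp, the sterol isomerase, stood at 91.5, 86.0 and 83.1 CPM against 101, 108 and 105 CPM, with the smallest fold of those called higher. Its log2 fold change was 0.26 (SE 0.0538, edgeR adjusted p = 0.00878), and the call held in 13 of 13 settings.

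The remaining sterol enzymes were not called without the block. Sqle, the squalene epoxidase, had a log2 fold of 0.35 (edgeR adjusted p = 0.0586), and Hsd17b7, a sterol ketoreductase, one of 0.39 (0.0654). With the block their adjusted p-values were 0.00184 and 0.0256. Lss, which closes the sterol rings, had a log2 fold of 0.26 with replicates that did not overlap. Dhcr7, the final reductase, Nsdhl, which acts after Msmo1, Tm7sf2, a sterol reductase, Sc5d, a desaturase, and Cyp51, the lanosterol demethylase, had log2 folds between -0.11 (Cyp51) and 0.16 (Dhcr7). The 11 genes summed to 446, 405 and 375 CPM against 522, 463 and 451 CPM, without overlap. The 18 cholesterol enzymes together summed to 749.5, 675 and 621 CPM against 877, 759 and 744 CPM, so that tdTomato-GFP- replicate 1 lay above tdTomato+GFP+ replicate 3 but each tdTomato+GFP+ replicate was above the tdTomato-GFP- replicate of the same number. Replicate 1 was highest in both gates for 12 of the 18 enzymes and for 19 of the 33 genes, beside 22.3% of 11961 genes at or above the level of the lowest tested member.

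None of the 4 SREBP factor and control genes was called over all cells by edgeR, and 1 had an unadjusted p below 0.05. DESeq2 called 0. Srebf2, which encodes SREBP2, stood at 137, 120 and 120 CPM against 146, 137 and 138 CPM (log2 0.14, edgeR adjusted p = 0.122, and 0.0245 with the block). Srebf1, Insig1 and Scap had log2 folds of -0.02, 0.04 and -0.21. Of the transport genes, Stard4, a cytosolic sterol carrier, had a log2 fold of 0.17 and Abcg1, an efflux pump induced by LXR, one of -0.21, neither called. Abca1, the other LXR-induced efflux pump, had 20 and 15 UMIs in all and was not tested.

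Fatty acid genes gave 3 lower calls and 0 higher calls among 8, beside 13.4% lower and 13% higher over all tested genes. Elovl6, the elongase that extends palmitate, stood at 19.2, 18.4 and 20.4 CPM against 5.52, 8.34 and 9.33 CPM. The lowest tdTomato-GFP- replicate was above the highest tdTomato+GFP+ replicate. Its log2 fold change was -1.30 (SE 0.158, edgeR adjusted p = 0.000709) and it was called in 13 of 13 settings, with folds from -1.43 to -1.06. The gene lies on chromosome 3 at 129532355 to 129638495 of GRCm38 on the plus strand. Elovl5, the elongase of polyunsaturated fatty acids, stood at 89.8, 105 and 97.9 CPM against 63.4, 76.3 and 73.2 CPM, again without overlap. Its log2 fold change was -0.47 (SE 0.089, edgeR adjusted p = 0.00588), called in 13 of 13 settings. Fasn, the synthase that makes palmitate, stood at 30.0, 28.0 and 26.5 CPM against 24.9, 24.4 and 23.2 CPM. Its log2 fold change of -0.24 (SE 0.0729, edgeR adjusted p = 0.0427) was called in 4 of 13 settings. It was -0.03 (adjusted p = 0.899) in edgeR on 1 cell per T cell receptor clonotype, and the adjusted p was 0.162 in DESeq2. Leaving out tdTomato-GFP- replicate 1 or 2 or any tdTomato+GFP+ replicate also ended the call of Fasn, with edgeR adjusted p-values from 0.0582 to 0.147. Scd2, a desaturase, had non-overlapping replicates and a log2 fold of -0.26 (edgeR adjusted p = 0.0879). Acly, which makes cytosolic acetyl-CoA, Acaca, which makes malonyl-CoA, and Fads1, a polyunsaturated desaturase, had folds of 0.07, -0.19 and 0.08. Fads2, another such desaturase, had 57 and 17 UMIs in all. The 8 genes summed to 273, 278 and 269.8 CPM against 228, 234 and 236 CPM, without overlap. Epithelial markers summed to 27.3 to 146 CPM in tdTomato-GFP- and 14.1 to 35.8 CPM in tdTomato+GFP+ cells, with overlap. NK and ILC markers summed to 10.3 to 11.3 and 0.404 to 1.10 CPM, without overlap. Mitochondrial transcripts (8660.2 to 8740.1 and 7501 to 7897 CPM) were also higher in tdTomato-GFP- cells without overlap. So were mast cell (15.8 to 19.9 and 9.48 to 13.5 CPM) and CD8 T cell markers (6.31 to 7.94 and 3.81 to 5.16 CPM). The mast cell sum rests on 1 of 4 markers and the CD8 sum on 1 of 2, here and below. Myeloid (317 to 336 and 379 to 425 CPM), Th17 (1930.1 to 2495 and 12724 to 17191 CPM) and Treg markers (1744 to 2140.2 and 2751 to 3486 CPM) were higher in tdTomato+GFP+ cells. The part of these signals in the differences of any gene of the set was not tested.

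**Figure D2:**
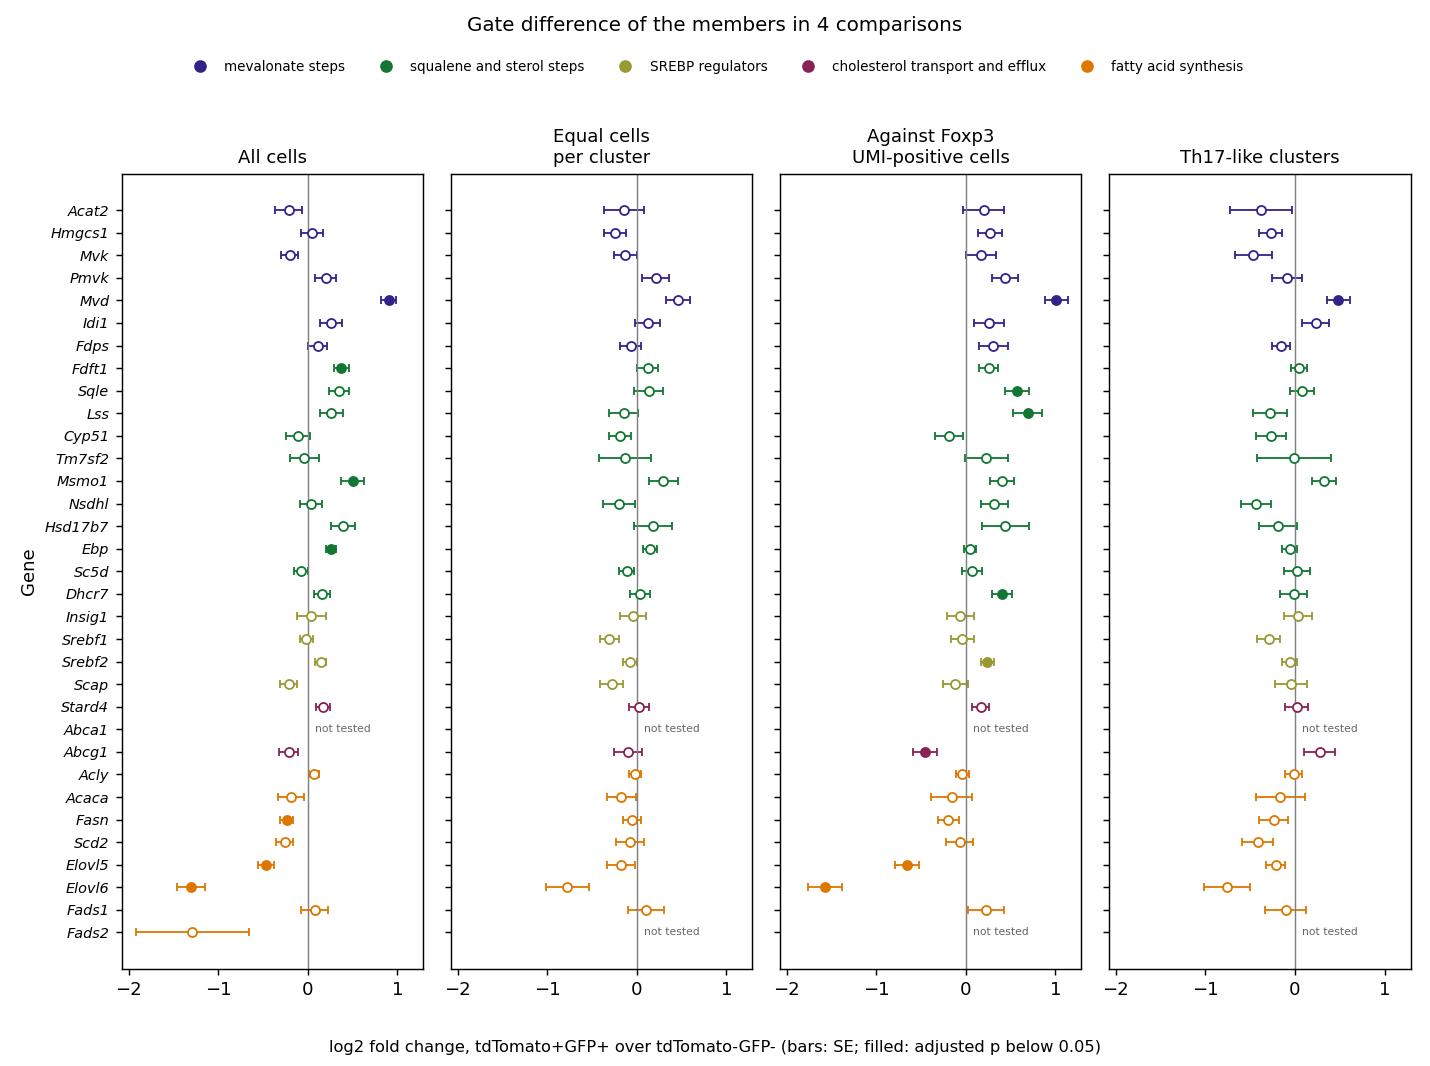
Log2 fold change of each gene, tdTomato+GFP+ over tdTomato-GFP-, with its SE, in 4 comparisons; colours give the role and filled points an edgeR adjusted p below 0.05. Mvd lies right of 0 and Elovl6 left of 0 in all 4 panels, at 0.90 and -1.30 over all cells and at 0.46 and -0.77 with equal cells per cluster.

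The gates differed in cluster make-up, so the comparison was repeated on cells drawn so that both gates had equal numbers from every cluster within a replicate number, with 1049 or more cells per replicate. Here 0 of 31 tested genes were called by edgeR, 3 had an unadjusted p below 0.05, and DESeq2 also called 0, beside 2.61% of all genes called by edgeR. Cells were matched within a replicate number, and neither of these tests takes that number into account. Their 0 calls therefore do not show that the gate difference was absent. With the replicate block edgeR called 4, which were Mvd and Msmo1 higher and Hmgcs1 and Elovl6 lower, beside 12.1% of all genes called with the block, a share near that of the set. Mvd stood at 24.4, 20.8 and 23.2 CPM against 39.1, 27.9 and 28.3 CPM, without overlap. Its log2 fold was 0.46 (SE 0.136, edgeR adjusted p = 0.128, and 0.0117 with the block). Elovl6 stood at 12.7, 14.8 and 19.2 CPM against 6.44, 8.99 and 11.9 CPM, also without overlap. Its log2 fold was -0.77 (SE 0.236, edgeR adjusted p = 0.14, and 0.00397 with the block). Msmo1 and Hmgcs1 had blocked log2 folds of 0.28 (edgeR adjusted p = 0.0226) and -0.25 (0.0253). The median log2 fold of the 18 cholesterol enzymes was -0.02 here and 0.18 over all cells, and 9 of 18 folds were positive. Their sum was 835, 714 and 669.5 CPM against 862, 694 and 732 CPM. The fatty acid sum was 266, 274 and 269 CPM against 235, 255 and 261 CPM and did not overlap. Elovl5 had a log2 fold of -0.18 (edgeR adjusted p = 0.656) and Fasn one of -0.06 (0.921). In these cells NK and ILC (4.10 to 10.5 against 0.666 to 2.15 CPM), mast cell (20.6 to 36.9 against 7.17 to 10.9 CPM) and B and plasma cell markers (146 to 165 against 82.4 to 97.1 CPM) were higher in tdTomato-GFP- replicates, and myeloid markers (274 to 308 against 314 to 347 CPM) were lower, all without overlap. Their part in the differences was not tested.

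Cells with at least 1 Foxp3 UMI in the tdTomato-GFP- gate gave a second reference for the same tdTomato+GFP+ samples (349 or more cells per replicate). Of 31 genes tested, 5 were higher in tdTomato+GFP+ cells (Mvd, Sqle, Lss, Dhcr7 and Srebf2) and 3 were lower (Abcg1, Elovl5 and Elovl6) by edgeR, beside 21.9% of all genes called, 9.64% higher and 12.3% lower. With the block 12 were higher and 3 lower, beside 28% of all genes. Of the 18 cholesterol enzymes 17 had a positive fold, with a median log2 fold of 0.29, beside -0.01 over all tested genes. Both comparisons share the tdTomato+GFP+ samples, so their values are given side by side only.

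Mvd stood at 19.9, 19.3 and 14.2 CPM in Foxp3 UMI-positive tdTomato-GFP- cells, below the tdTomato+GFP+ values given above. Its log2 fold was 1.01 (SE 0.126, edgeR adjusted p = 0.000401). Sqle stood at 32.0, 30.0 and 23.7 CPM against 50.9, 40.0 and 39.6 CPM, without overlap, with a log2 fold of 0.57 (SE 0.132, edgeR adjusted p = 0.0119). Lss stood at 7.57, 6.74 and 6.76 CPM against 10.9, 11.3 and 11.9 CPM, with a log2 fold of 0.69 (SE 0.161, edgeR adjusted p = 0.0123). Lss shares 381 exonic bases with an antisense transcript, 4930483K19Rik. Dhcr7 stood at 21.0, 19.0 and 16.2 CPM against 26.5, 24.6 and 24.8 CPM, with a log2 fold of 0.40 (SE 0.112, edgeR adjusted p = 0.0288). Srebf2 stood at 134, 112 and 110 CPM against 146, 137 and 138 CPM, with a log2 fold of 0.24 (SE 0.074, edgeR adjusted p = 0.0431). None of these 5 genes overlapped between the groups. In all, 9 tested genes of the set were separated in this direction and 3 in the other, beside 18.7% and 20.9% of all genes.

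Elovl6 stood at 24.0, 20.5 and 27.1 CPM in Foxp3 UMI-positive cells, so its log2 fold was -1.57 (SE 0.193, edgeR adjusted p = 0.000359). Elovl5 stood at 94.6, 116 and 129 CPM there, with a log2 fold of -0.65 (SE 0.131, edgeR adjusted p = 0.00847). Abcg1 stood at 26.5, 26.1 and 33.1 CPM against 18.7, 18.6 and 23.3 CPM, with a log2 fold of -0.46 (SE 0.136, edgeR adjusted p = 0.0363). None of these 3 genes overlapped between the groups. Mvd, Sqle, Elovl5 and Elovl6 were called in 11 of 11 alternative settings, Lss in 8, Srebf2 and Abcg1 in 5 and Dhcr7 in 4. Requiring a Foxp3 UMI in both gates ended the calls of Lss, Dhcr7 and Abcg1 (edgeR adjusted p = 0.13, 0.0855 and 0.0544). DESeq2 did not call Lss, Dhcr7, Srebf2 or Abcg1 (adjusted p = 0.0623, 0.124, 0.102 and 0.0819). Leaving out tdTomato+GFP+ replicate 2 ended the calls of Lss, Dhcr7, Srebf2 and Abcg1, with edgeR adjusted p-values of 0.0616, 0.0932, 0.117 and 0.147. Leaving out tdTomato-GFP- replicate 2 or 3 or tdTomato+GFP+ replicate 1 ended those of Dhcr7, Srebf2 and Abcg1 (0.0536 to 0.159), and leaving out tdTomato+GFP+ replicate 3 those of Dhcr7 and Srebf2 (0.0535 and 0.058), all by edgeR. Epithelial markers summed to 66.8 to 597 CPM in the Foxp3 UMI-positive cells and 14.1 to 35.8 CPM in tdTomato+GFP+ cells, and B and plasma cell markers to 461 to 2129 and 290.03 to 2074 CPM. Th17 markers summed to 657 to 897 CPM against 12724 to 17191 CPM, Treg markers to 3957 to 4026 against 2751 to 3486 CPM, stromal and endothelial markers to 28.8 to 30.4 against 35.7 to 89.2 CPM, and CD8 T cell markers to 11.4 to 13.2 against 3.81 to 5.16 CPM. All of these lists but that of B and plasma cells were without overlap, and their part in the differences was not tested.

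Within the Th17-like clusters (229 or more cells per replicate) 1 of 31 genes was higher, 0 were lower and 7 had an unadjusted p below 0.05 by edgeR, beside 11.2% of all genes called, 4.75% higher and 6.45% lower. DESeq2 called 0, and edgeR with the block called 3 higher (Mvd, Idi1 and Msmo1) and 1 lower (Elovl6), beside 17.1% of all genes. Mvd stood at 29.3, 29.4 and 34.7 CPM against 47.9, 39.6 and 45.4 CPM, with no overlap. Its log2 fold was 0.48 (SE 0.129, edgeR adjusted p = 0.0233), and it was called in 5 of 10 settings. DESeq2 (adjusted p = 0.0971) and edgeR without tdTomato-GFP- replicate 1 (0.173) or 2 (0.0931) or tdTomato+GFP+ replicate 1 (0.0651) or 3 (0.0502) lost the call. Elovl6 stood at 10.8, 10.3 and 11.9 CPM against 4.77, 7.70 and 6.76 CPM, without overlap (log2 -0.76, SE 0.257, edgeR adjusted p = 0.0728, and 0.0296 with the block). Msmo1 stood at 63.5, 61.9 and 54.5 CPM against 93.6, 74.9 and 66.5 CPM, also without overlap (log2 0.33, edgeR adjusted p = 0.158, and 0.00467 with the block). The 18 enzymes summed to 895, 835 and 741 CPM against 929.6, 806 and 782 CPM, so the gates overlapped. In these cells the Th17 markers themselves summed to 14640.5 to 16214 CPM against 21217 to 23413 CPM. The Treg markers summed to 2729 to 3185 CPM against 3578 to 4058 CPM. Mast cell (50.5 to 59.4 against 7.95 to 17.3 CPM, from 1 of 4 markers), stromal and endothelial (47.2 to 66.4 against 29.7 to 39.2 CPM) and cycling markers (92.2 to 171 against 88.8 to 90.2 CPM) were higher in tdTomato-GFP- replicates without overlap. The part of these markers in the differences was not tested.

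In cluster 0, whose leading genes include Ccl1, Il13 and Il4, Elovl6 was the 1 gene called of 31 tested, beside 2.55% of all genes, 1.74% in the lower direction. It stood at 22.3, 19.1 and 20.6 CPM against 2.42, 6.44 and 14.8 CPM. The replicates did not overlap, and tdTomato+GFP+ replicate 3 was the nearest to the other gate. Its log2 fold was -1.23 (edgeR adjusted p = 0.0435), called in 5 of 10 settings, with an adjusted p of 0.174 in DESeq2. The call was lost without any 1 of the tdTomato-GFP- replicates (edgeR adjusted p = 0.0865 to 0.172) and without tdTomato+GFP+ replicate 2 (log2 -0.86, edgeR adjusted p = 0.399). In clusters 4, 5, 6, 8 and 10, edgeR called 0 of 28, 22, 28, 22 and 25 tested genes and DESeq2 called 0 in each, while 4, 4, 8, 0 and 7 had an unadjusted p below 0.05. The shares of all genes called by edgeR there were 1.56%, 3.71%, 5.2%, 0.73% and 3.88%. In cluster 4 the block, under which 2.97% of all genes were called, added Fdft1, at 80.0, 65.1 and 57.1 CPM against 99.4, 101 and 102 CPM (log2 0.60, edgeR adjusted p = 0.0295).

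Cluster 10, the cycling-like cells, had 7 of 25 tested genes with every tdTomato-GFP- replicate above every tdTomato+GFP+ replicate, beside 11.5% of all genes tested in that cluster. They were Fdps, Cyp51, Dhcr7, Scap, Acly, Scd2 and Elovl5. Its fatty acid sum was 289, 304 and 288 CPM against 207, 234 and 232 CPM. None was called by edgeR. Epithelial markers there ran from 25.3 to 1453 CPM in tdTomato-GFP- replicates and from 10.6 to 11.7 CPM in the others. B and plasma cell markers were at 115 to 176 against 45.7 to 74.2 CPM. CD8 T cell and NK and ILC markers were also higher in tdTomato-GFP- replicates. Th17 (1184 to 1677 against 5323 to 8356 CPM) and myeloid markers (203 to 217 against 235 to 495 CPM) were lower. All of these lists were without overlap, and their part was not tested. In cluster 6, led by Ccl5 and Ifng, the fatty acid sum was 254, 264 and 257 CPM against 221, 222 and 225 CPM. Th17 markers were higher in tdTomato+GFP+ replicates of clusters 0, 4 and 6 (means 904 against 239, 1928 against 584 and 4024 against 1567 CPM). B and plasma cell markers were lower in tdTomato+GFP+ replicates of each of these clusters. Neither list overlapped between the gates there, and their part was not tested.

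Gate differences themselves were compared between the Th17-like clusters and clusters 0, 4, 5, 6, 8 and 10, with an interaction term and the library (gate and replicate) as a block. No gene of the set was called by edgeR in any of the 6 contrasts, with 2 to 6 genes at an unadjusted p below 0.05 in each, and the smallest adjusted p was that of Ebp against cluster 0 (0.0653). The shares of all genes called were 2.39%, 2.09%, 4.18%, 2.29%, 0.995% and 2.48%. DESeq2 was not run for these contrasts.

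Levels also differed by cluster when the 6 replicates of both gates were averaged. These are given as a description with no test, since the clusters were made from the same cells, over the 11 clusters that had 20 or more cells in every one of 6 replicates. The 18 cholesterol enzymes summed highest in cluster 4 (mean of 6 replicates 1044 CPM, range 884 to 1204). Its leading genes include immunoglobulin transcripts, Ccl5, Csf2, Gzma and Ube2c. It held 2 of 6 cycling markers at 1.5-fold, as did cluster 11. Cluster 3 followed (959 CPM), then clusters 1 (860), 10 (831), 6 (733), 2 (703), 5 (661), 8 (604), 11 (562), 7 (542) and 0 (537 CPM, range 463 to 583). Each cluster overlapped the next in this order, but the range of cluster 4 was wholly above that of cluster 0. The order differed between the gates. In tdTomato-GFP- cells the mean sum was highest in cluster 3 (995 CPM, beside 964 in cluster 4) and lowest in cluster 7 (512 CPM). In tdTomato+GFP+ cells it was highest in cluster 4 (1123 CPM) and lowest in cluster 11 (504 CPM). Single genes below are given over both gates. Cluster 4 had the highest mean of 8 enzymes (Hmgcs1, Mvk, Idi1, Fdps, Sqle, Cyp51, Ebp and Sc5d), together with Insig1 and Stard4. Cluster 3, a Th17-like cluster, had the highest mean of 6 (Acat2, Mvd, Fdft1, Lss, Nsdhl and Dhcr7). Cluster 7, whose leading genes include Sostdc1, Izumo1r and Cxcr5, had the lowest mean of 7 enzymes and cluster 0 that of 4. Cluster 7 nevertheless had the highest mean of Tm7sf2 (14.7 CPM), a gene that shares 532 exonic bases with Vps51 on the same strand.

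**Figure D3:**
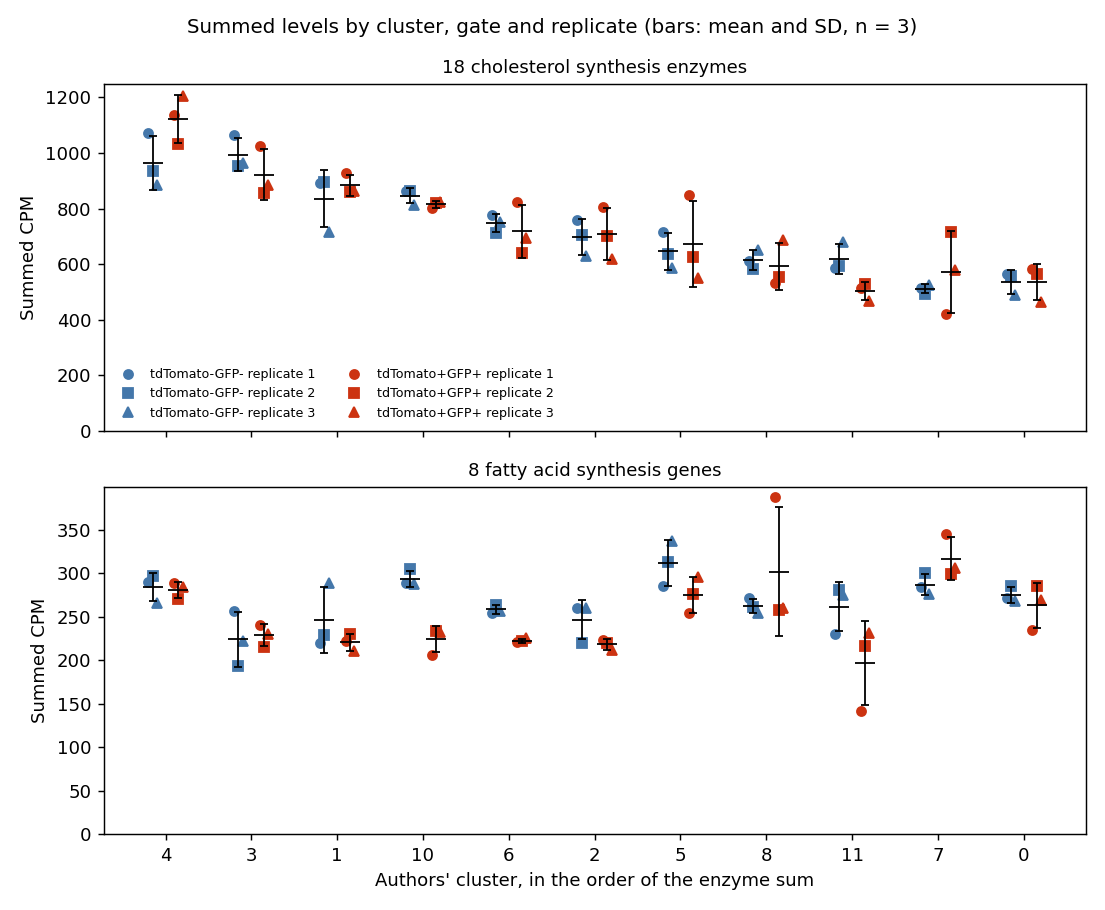
Summed CPM of the 18 cholesterol enzymes (top) and the 8 fatty acid genes (bottom) by cluster, gate and replicate, with mean and SD of 3 replicates. As a mean over both gates, the enzyme sum falls from 1044 CPM in cluster 4 to 537 CPM in cluster 0. The fatty acid sum, as the same mean, follows another order, from 301.7 CPM in cluster 7 to 226 CPM in cluster 3.

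Fatty acid genes followed another order. Their sum was highest in cluster 7 (301.7 CPM, range 277 to 345) and cluster 5 (293 CPM, range 254 to 337) and lowest in cluster 3 (226 CPM, range 194 to 257), with each cluster overlapping the next. The range of cluster 7 did not reach that of cluster 3. This order too is that of means over both gates and differed between them. In tdTomato-GFP- cells the mean sum was highest in cluster 5 (312 CPM, beside 287 in cluster 7) and lowest in cluster 3 (224 CPM). In tdTomato+GFP+ cells it was highest in cluster 7 (317 CPM) and lowest in cluster 11 (197 CPM, beside 229 in cluster 3). Single genes below are again given over both gates. Elovl6 had its highest means in cluster 5 (27.5 CPM, range 20.5 to 33.7) and cluster 7 (25.9 CPM) and its lowest in cluster 3 (7.37 CPM, range 0.782 to 12.6). Elovl5 was highest in cluster 0 (116 CPM, range 99.1 to 126) and lowest in cluster 3 (57.3 CPM, range 40.7 to 74.4). Mvd differed the other way between clusters 3 and 7, with 48.1 CPM in cluster 3 and 5.67 CPM in cluster 7. The cycling-like cluster 10 had the highest means of Acaca (14.4 CPM), Fasn (35.0 CPM), Fads1 (16.6 CPM), Fads2 (3.36 CPM) and Pmvk (33.9 CPM), and the lowest of Srebf2 (98.2 CPM) and Abcg1 (9.92 CPM). Its cells had a median of 8615 UMIs, beside 3390.5 to 4590.5 in the other 10 clusters.

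**Figure D4:**
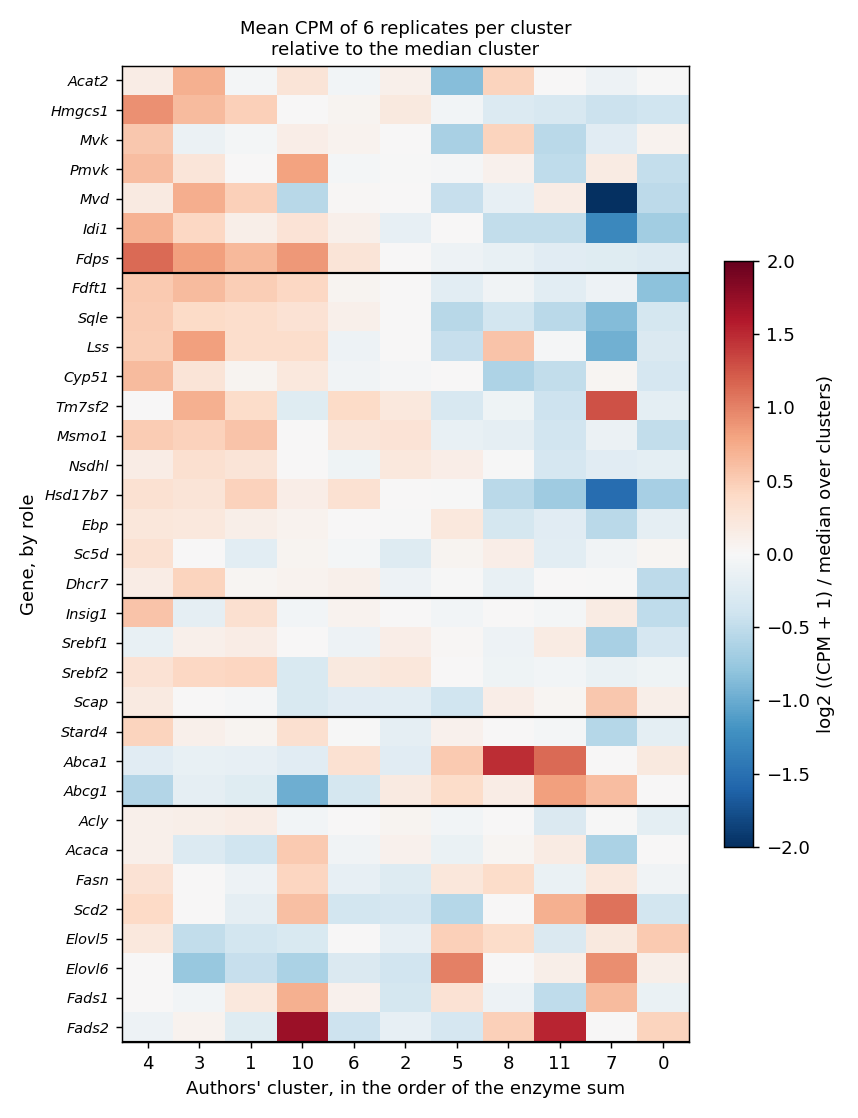
Mean CPM of each gene over 6 replicates in 11 clusters, as log2 of CPM plus 1 over the median cluster, with genes ordered by role and clusters by the enzyme sum. The cholesterol enzymes are mostly above their median in clusters 4, 3, 1, 10 and 6. Mvd is lowest in cluster 7, and Elovl6 is highest in clusters 5 and 7.

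The gate direction of the genes called over all cells was compared with that within each of these 11 clusters, as a description over the same cells. The tdTomato+GFP+ mean of Mvd was higher in 10 of 11 clusters and its replicates did not overlap in 4 (clusters 0, 1, 3 and 4). In cluster 3 the means were 37.6 ± 8.82 CPM and 58.7 ± 9.51 CPM (SD, n = 3 each). The tdTomato-GFP- mean of Elovl6 was higher in 11 of 11 clusters, without overlap in 4 (clusters 0, 2, 4 and 11). Cluster 5 had the highest Elovl6 level in both gates, 29.7 ± 3.57 and 25.4 ± 5.81 CPM, and it held 14.4% of tdTomato-GFP- and 1.84% of tdTomato+GFP+ cells. Sqle was higher by its tdTomato+GFP+ mean in 9 clusters, Fdft1 and Msmo1 in 8, and Ebp in 7. The tdTomato-GFP- mean was higher in 8 clusters for Elovl5 and in 5 for Fasn. Hmgcs1 and Srebf2 had the higher mean in tdTomato-GFP- cells in 9 of 11 clusters, with folds of 0.05 and 0.14 over all cells.

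Other genes of lipid handling were read from lists of 70 genes, 66 of them in the table, over all cells, where 26.4% of all genes were called, 13% higher and 13.4% lower. Of 18 tested genes of other lipid synthesis and SREBP control, 0 were higher and 2 lower. These were Acss2, which makes acetyl-CoA from acetate (log2 -1.09, SE 0.111, edgeR adjusted p = 0.000324), and Pcyt2 of phosphatidylethanolamine synthesis (log2 -0.20, edgeR adjusted p = 0.0411). Elovl1, the third by p, had a log2 fold of 0.12 and was not called (0.132). Of 19 genes of LXR response, uptake, storage and sterol transport, 4 were higher and 3 lower. The smallest p-values were those of Dgat2, which makes triglycerides (log2 -3.24, edgeR adjusted p = 0.000211), Plin3, a lipid droplet coat protein (log2 0.45, 0.00145), and Npc1, which exports cholesterol from lysosomes (log2 0.67, 0.00222). Of 23 genes of fatty acid uptake and oxidation, 4 were higher and 1 was lower. Acsl3, an acyl-CoA synthetase, had a log2 fold of -1.30 (edgeR adjusted p = 0.00469), Acsl4, another, one of 0.40 (0.0116), and Etfb, an electron carrier of beta oxidation, one of 0.26 (0.00531).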

How the data were processed

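Colonic lamina propria CD4 T cells of 2 sorted gates were profiled on 10x lanes. The deposited values were whole UMI counts per cell and gene, with a cell table that gave gate, replicate, cluster and the fraction of hashtag counts from the main hashtag, at least 0.8 in assigned cells. The submitters' processing notes name mm10, GRCm38, Scanpy 1.7.2 and Cell Ranger. Cell and gene filters, clustering, the hashtag rule, doublet removal and strand use are not given in the sources used here. The 3 hashtag columns (43.8% of UMIs), 4721 cells without a replicate and, by cluster, 216 cells without a cluster were left out, and no doublet caller was run.

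Counts were summed per hashed replicate, which gives 3 samples per gate. The edgeR test (4.0.16, R 4.3.3) used TMM, filterByExpr with a minimum count of 10 and robust quasi-likelihood. It was two-sided, with Benjamini-Hochberg adjustment over all tested genes and a threshold of 0.05. In simulated counts of all cells, Th17-like clusters and cluster 5, 6.21%, 8.33% and 9.59% of calls were false. Changes of 1 log2 unit were recovered there at 79.6%, 81.8% and 54.8%. DESeq2 1.42.0, RLE factors, no filter, the replicate block and leaving out replicates were alternatives. CPM are UMIs scaled to the total without hashtags. Gate comparisons in single clusters needed 20 cells per replicate. Same-numbered replicates deviated together over all cells (correlations of deviations from gate means 0.264, 0.148 and 0.275), so the numbers were taken to pair the samples, and blocked values are given where they changed a call. The same correlations were weaker in the Th17-like clusters (0.107, 0.0128 and 0.154) and in cluster 4 (0.128, 0.0722 and 0.135). In the Th17-like clusters, tdTomato-GFP- replicate 2 correlated more with tdTomato+GFP+ replicate 1 (0.0511) than with replicate 2. Pairing within these clusters is thus less well shown. The labels do not say what the numbers mark. Gene positions are from GENCODE vM21.

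The 33 genes, their roles, the other lipid lists and the markers were chosen with earlier results of these data known. All 33 genes could be named, full values were given for those called in a comparison, and from each other lipid list the 3 genes with the smallest adjusted p were named.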

Additional observations from a re-analysis of the deposited data

How the results depend on the processing

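Directions of the 17 calls named above held in every setting run, and no value reversed. The number of genes of the set called moved as follows. With the replicate block it was 11 over all cells (7 without), 4 with equal cells per cluster (0), 15 against Foxp3 UMI-positive cells (8), 4 in the Th17-like clusters (1) and 1 in cluster 4 (0), and it changed no other count of the set. DESeq2 gave 4 against Foxp3 UMI-positive cells, 0 in the Th17-like clusters and 0 in cluster 0. Without a filter on low counts edgeR gave 3 in cluster 0, 1 in cluster 4 and 1 in cluster 5. Requiring a Foxp3 UMI in both gates gave 5. Leaving out 1 replicate at a time gave 4 to 8 over all cells, 4 to 13 against Foxp3 UMI-positive cells, 0 to 3 in the Th17-like clusters, 0 to 2 in cluster 0, 0 to 1 in cluster 4, 0 to 1 in cluster 6 and 0 to 1 for the Th17-like clusters against cluster 5. Over all cells the count was 4 without tdTomato-GFP- or tdTomato+GFP+ replicate 2. Against Foxp3 UMI-positive cells it was 13 without tdTomato-GFP- replicate 1, 5 without tdTomato-GFP- replicate 2 or 3 or tdTomato+GFP+ replicate 1, and 4 without tdTomato+GFP+ replicate 2. In the Th17-like clusters it was 0 without tdTomato-GFP- replicate 1 or 2 and 3 without replicate 3. In cluster 0 it was 2 without tdTomato+GFP+ replicate 1 and 0 without its replicate 2 or any tdTomato-GFP- replicate. It was 1 in cluster 4 without tdTomato-GFP- replicate 1, 1 in cluster 6 without tdTomato-GFP- replicate 3 or tdTomato+GFP+ replicate 1, and 1 against cluster 5 without tdTomato+GFP+ replicate 1. Alternatives of the contrasts between clusters were added after the data were seen. The cause of these shifts was not tested. The equal-cells comparison called 278 of all genes, and 1292 with the block. Without tdTomato-GFP- replicate 2 or 3 or tdTomato+GFP+ replicate 2 it called 41, 32 and 46. Other counts over all genes also moved by more than 1.5 times without 1 replicate. They fell from 3153 to 2093 and 2005 over all cells and from 2416 to 1535 and 1423 against Foxp3 UMI-positive cells without either replicate 2, and from 1129 to 612 in the Th17-like clusters without tdTomato-GFP- replicate 1. The lowest in clusters 0, 4, 5 and 6 were 93, 39, 97 and 251 without tdTomato+GFP+ replicate 2, those in clusters 8 and 10 were 15 and 131 without tdTomato-GFP- replicates 2 and 1, and the highest in clusters 0, 5 and 8 were 415, 421 and 137 without tdTomato+GFP+ replicate 1. The counts over all genes that moved by more than 1.5 times with the block, besides, were 1129 to 1726 in the Th17-like clusters, 231 to 363 in cluster 0, 119 to 226 in cluster 4 and 48 to 94 in cluster 8. Without a filter they were 571, 322, 495, 154 and 504 in clusters 0, 4, 5, 8 and 10 (241 and 285 with it in clusters 5 and 10), and DESeq2 gave 213 (edgeR 418) in cluster 6 and 132 in cluster 10. Genes at a few UMIs, such as Abca1 and Fads2, are limited by depth.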
